A study of Triticum aestivum with 18 samples.

Results

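Transcripts of 1-FEH and 6-FEH, both fructan exohydrolases, and of AGP-S, the small subunit of ADP-glucose pyrophosphorylase, were followed in wheat leaves before and after feeding by the greenbug aphid. The members were all probe sets that the array annotation gives to these genes by symbol or by gene-table synonym, and 5 of the 61290 probe sets met that rule. One was annotated to 1-FEH, 3 to 6-FEH and 1 to AGP-S. The 6-FEH probe sets are called here by the part of their array name that tells them apart: the _x_at probe set, the _a_at probe set and the TaAffx probe set (the plots carry the full names). Only 1273 probe sets carried a gene annotation, so other genes of the same pathways may be on the array without a name.

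The plants were 2 near-isogenic lines of bread wheat, TXGBE273 (resistant to the greenbug) and TXGBE281 (susceptible), grown in a greenhouse and sampled as leaf tissue at the 3-leaf stage. Leaves of each line were taken at 0 h, labelled as the control, and again 24 h and 48 h after plants were infested with greenbugs of biotype E. The 6 groups held 3 arrays each, 18 in all. No uninfested leaves of 24 h or 48 h were analysed here, so infestation and the time since 0 h cannot be told apart. Whether the replicates of a group are separate plants is not given in the labels, and p-values reflect just the spread between these arrays, which may be technical.

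Fructans are chains of fructose built on sucrose, and temperate grasses such as wheat store them in the vacuoles of leaves, stems and developing grains. Fructan exohydrolases cut fructose from the ends of these chains: 1-FEH acts on the linkages of inulin-type fructans and 6-FEH on those of levan-type fructans. ADP-glucose pyrophosphorylase makes ADP-glucose, the glucose donor for starch, and in leaves that starch is built in the chloroplast by day and broken down at night. The genes therefore stand for release of sugar from one store (1-FEH and 6-FEH) and for building of the other (AGP-S).

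On the deposited scale of the arrays, 1-FEH rose and AGP-S fell in both lines at both times after infestation, and the most even of the 6-FEH probe sets fell as well. When the arrays were set on their hybridisation controls instead, the rise of 1-FEH kept its calls. No change of AGP-S passed the test on that scale, and its sign turned in resistant leaves. The control scale moved the median of all probe sets up by 0.39 to 0.68, which favours calls of a rise over calls of a fall. Minus that median, the change was 0.40 to 1.13 for 1-FEH and -0.32 to -0.73 for AGP-S. These values are the same on either scale, because the scaling shifts every probe set of an array by the same amount. They are therefore no check of the scale. Fitted with 16 added to each signal, 1-FEH was 1.30-fold and 1.48-fold its 0 h level in resistant leaves at 24 h and 48 h, and 1.86-fold and 2.08-fold in susceptible leaves. AGP-S came to 79.1% and 73.1% of its 0 h level in resistant leaves and to 67.6% and 57.3% in susceptible leaves. At 0 h none of the 5 probe sets differed between the lines by the test. After infestation 1-FEH was lower in resistant leaves than in susceptible leaves at both times, while the test of the difference between the lines' changes did not pass the threshold at either time.

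Values are probe-set signals on a linear scale, changes are differences in log2(signal + 16), and a probe set was called where its adjusted p was under 0.05 in limma's moderated test over 46251 probe sets with Benjamini-Hochberg adjustment. All adjusted p-values below are from that fit, unless another is named. In resistant leaves at 24 h, 1 of the 5 members was called higher and 3 lower than at 0 h, in a comparison that called 32.2% of all probe sets tested (17.6% higher and 14.5% lower). The groups did not overlap for 4 members, against 43.3% of all tested. At 48 h in that line, 1 was higher and 2 lower against 33.7% called (17.4% and 16.3%), and 3 did not overlap against 43.5%. In susceptible leaves at 24 h, 1 was higher and 2 lower against 33.4% called (17.1% and 16.3%), and 4 did not overlap against 43.6%. At 48 h, 1 was higher and 4 lower against 36.9% called (17.8% and 19.1%), and all 5 did not overlap against 48.3%. With 32.2% to 36.9% of all probe sets called in the comparisons with 0 h, a call of a member there is not unusual for these data.

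The medians of the 5 log2 changes from 0 h were -0.81 and -0.75 in resistant leaves and -1.21 and -1.56 in susceptible leaves, against -0.02, -0.06, -0.07 and -0.08 over all probe sets tested. Each of these medians is the value of a 6-FEH probe set, and the 3 probe sets of that gene are not independent of each other. The _a_at probe set was above the level of the filter on low values (described below) on 3 arrays of 0 h and 1 infested array. Its fall was thus close to a condition of entry, and the medians support nothing by themselves. Between 24 h and 48 h no member was called in either line, where 5.17% (resistant) and 10.1% (susceptible) of all probe sets were. By unadjusted p under 0.05, the count was 0 of 5 in resistant leaves, against 17.5% of all tested, and 1 of 5 in susceptible leaves, against 21.4%. Groups that did not overlap between these times numbered 0 of 5 in resistant leaves, against 22.4% of all tested, and 1 of 5 in susceptible leaves, against 28.9%.

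The 1-FEH probe set was bright on every array, between the 96.1 and 98.8 percentile of its array. In resistant leaves its signals were 5454, 4591 and 5155 at 0 h, then 6946, 6252 and 6575 at 24 h, and 8061, 7665 and 6819 at 48 h. All infested arrays of this line lay above all of its 0 h arrays, and the 24 h and 48 h arrays overlapped. The susceptible line began at 4633, 5266 and 5370, within the range of the resistant line, and reached 9106, 8439 and 10990 at 24 h and 10690, 9741 and 11410 at 48 h. Each infested array of the susceptible line was above each infested array of the resistant line. Since the leaves were measured whole, a change in the share of cells that hold a transcript and a change in its amount per cell cannot be told apart here or for the other members.

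Group means of the 1-FEH signal were 5067 ± 438.0, 6591 ± 347.2 and 7515 ± 634.5 in resistant leaves and 5090 ± 399.1, 9512 ± 1323 and 10610 ± 836.4 in susceptible leaves (0 h, 24 h and 48 h, SD, n = 3). Its log2 change in resistant leaves was 0.38 at 24 h (SE 0.107, adjusted p = 0.00902) and 0.57 at 48 h (adjusted p = 0.000266). Without replicate 2 of the resistant 0 h group the 24 h change was 0.31 and did not pass (adjusted p = 0.0543). In susceptible leaves the change was 0.89 at 24 h (adjusted p = 1.21e-06) and 1.06 at 48 h (adjusted p = 8.47e-08). Among all probe sets tested, 28.9% had a larger rise than 1-FEH in resistant leaves at 24 h, and 10.6% in susceptible leaves. From 24 h to 48 h the differences of 0.19 and 0.16 did not pass the test (adjusted p = 0.406 and 0.43).

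The lines had the same 1-FEH level at 0 h within the spread, with a log2 difference (resistant minus susceptible) of -0.01 and a 95% interval from -0.23 to 0.22. No member was called in that comparison, where 0.0216% of all tested were, nor did any have an unadjusted p under 0.05, against 6.88% of all tested. None had groups that did not overlap, against 10.5% of all tested. At 24 h the difference was -0.52 (adjusted p = 0.00486) and at 48 h -0.50 (adjusted p = 0.00343), and 1-FEH was the only one of the 5 members called between the lines at either time. On the scale of the hybridisation controls these differences were -0.37 (adjusted p = 0.307) and -0.80 (adjusted p = 0.00254). Those comparisons called 5.15% and 12.1% of all probe sets, 2.77% and 5.39% of all as lower. Calls were 1099 higher and 1283 lower at 24 h and 3094 higher and 2492 lower at 48 h, against 1138 and 528, and 826 and 3753, on the control scale. Groups did not overlap for 1 member at 24 h, against 20.3% of all tested, and for 4 members at 48 h, against 29.8%.

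The difference between the lines' changes from 0 h was tested directly. For 1-FEH it was -0.51 at 24 h (95% interval -0.83 to -0.20, adjusted p = 0.113) and -0.49 at 48 h (interval -0.81 to -0.17, adjusted p = 0.0696). Both unadjusted intervals lay below 0, and neither difference passed the threshold after adjustment. On the scale of the hybridisation controls the differences were -0.28 (adjusted p = 0.659) and -0.70 (adjusted p = 0.142). No member was called in these tests, which called 1.6% and 5.05% of all probe sets, and 1 of 5 members at 24 h and 2 of 5 at 48 h had an unadjusted p under 0.05, against 11.9% and 17.7% of all tested. When single arrays were left out, the adjusted p ran from 0.0357 (without replicate 2 of the susceptible 24 h group) to 0.30 (without replicate 3 of that group) at 24 h. At 48 h it ran from 0.0492 (without replicate 1 of the resistant 48 h group) to 0.188 (without replicate 3 of the susceptible 48 h group), and 1 of the 12 fits passed at each time.

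The AGP-S probe set was as bright as that of 1-FEH relative to the rest of its array, between the 95.6 and 97.9 percentile. The resistant line gave 6337, 7752 and 7050 at 0 h, 5911, 5182 and 5578 at 24 h and 4963, 5341 and 5098 at 48 h. In susceptible leaves the signals were 7444, 7754 and 7187 at 0 h, 4860, 5727 and 4585 at 24 h and 4386, 4068 and 4360 at 48 h. All infested arrays of a line were below its 0 h arrays, and the 3 susceptible arrays of 48 h were the lowest of the 18.

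The means of AGP-S were 7046 ± 707.5, 5557 ± 365.1 and 5134 ± 191.6 in resistant leaves and 7462 ± 284.0, 5057 ± 595.9 and 4271 ± 176.7 in susceptible leaves (0 h, 24 h and 48 h, SD, n = 3). Its log2 change was -0.34 (SE 0.0959, adjusted p = 0.00932) and -0.45 (adjusted p = 0.00085) in resistant leaves, and -0.57 (adjusted p = 8.41e-05) and -0.80 (adjusted p = 8.22e-07) in susceptible leaves. Without replicate 2 of the resistant 0 h group, or replicate 2 of the resistant 24 h group, the 24 h change was -0.27 or -0.29 and did not pass (adjusted p = 0.0603 and 0.0515). These falls were of moderate size for the array: 33.5% of all tested probe sets fell further than AGP-S in resistant leaves at 24 h and 19.8% in susceptible leaves at 48 h.

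Ordered by mean, AGP-S was highest at 0 h (susceptible, then resistant), followed by the resistant groups of 24 h and 48 h and then the susceptible groups of 24 h and 48 h. Neighbours in that order overlapped within 0 h, and from the resistant line at 24 h through to the susceptible line at 24 h. The step from 24 h to 48 h in susceptible leaves, -0.24, separated all arrays but did not pass the test (adjusted p = 0.14). In the same way the lines did not overlap at 48 h, with a difference of 0.26 that did not pass (adjusted p = 0.0837). The tests of the difference between the lines' changes gave 0.23 at 24 h (adjusted p = 0.56) and 0.35 at 48 h (95% interval 0.07 to 0.63, adjusted p = 0.162). On the scale of the hybridisation controls the AGP-S difference between lines at 48 h turned to -0.03 (adjusted p = 0.928), and the differences in change were 0.46 and 0.14 (adjusted p = 0.389 and 0.859). For 1-FEH the order by mean was the reverse across time: the 0 h groups overlapped each other, as did the resistant groups of 24 h and 48 h and the susceptible groups of 24 h and 48 h, with no overlap between these 3 pairs.

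**Figure D1:**
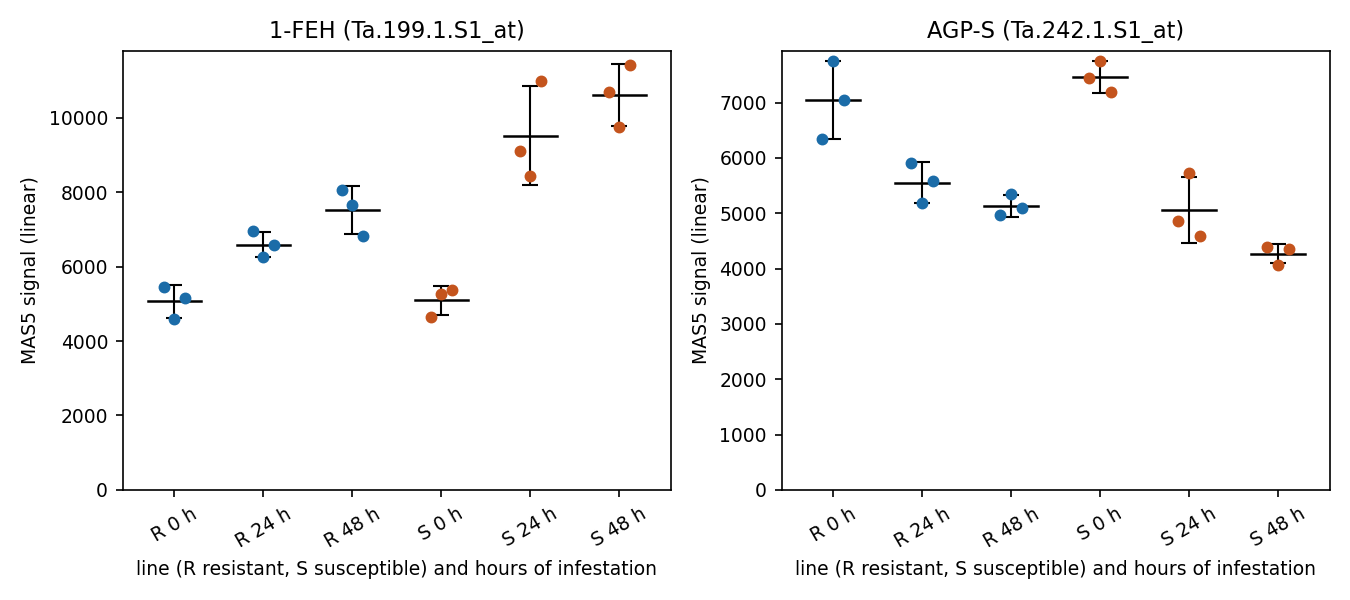
Signals of 1-FEH and AGP-S on each of the 18 arrays, by line and time after infestation (h). Points are arrays and bars are group means with SD (n = 3). The 1-FEH signals of the infested susceptible line, 8439 to 11410, lie above all those of the resistant line, and AGP-S is lowest at 4068 to 4386 in susceptible leaves at 48 h.

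The fall of AGP-S depends on how arrays are put on a common scale. The deposited signals had been scaled so that the trimmed mean of each array is equal. On those signals 27 hybridisation control probe sets (for spiked RNA) averaged 12.4 to 12.8 on the log2 scale at 0 h and 11.5 to 12.2 after infestation. The amount of RNA per leaf was not measured, so neither scale gives absolute amounts. When arrays were put on the level of those controls instead, the change of AGP-S was 0.35, 0.08, -0.11 and -0.06 in the 4 comparisons with 0 h, with adjusted p-values of 0.0595, 0.724, 0.635 and 0.774. On that scale the median of all probe sets moved by 0.68, 0.47, 0.39 and 0.67, and the change of AGP-S minus that median was -0.32, -0.39, -0.50 and -0.73. Calls on that scale were 18534 higher and 2164 lower in resistant leaves at 24 h, against 8144 and 6728 on the deposited scale. The counts at 48 h were 14736 and 3054, against 8040 and 7555. In susceptible leaves they were 13119 and 3503 at 24 h, against 7926 and 7532, and 18639 and 3286 at 48 h, against 8250 and 8814. The change minus the median is the same on either scale, since the scaling shifts every probe set of an array by the same amount. It restates the fall of AGP-S relative to the median and is no check of the scale. The change of AGP-S on the control scale did not pass the test. The rise of 1-FEH was 1.07, 1.10, 1.35 and 1.80 on the control scale. It was above the median change in all 4 comparisons, which the scaling cannot alter.

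Within 1 array the scale cancels from the ratio of 1-FEH to AGP-S, a measure that was chosen after the values were seen. The 2 probe sets hybridise with different strength, so that only changes in this ratio carry meaning. In resistant leaves the log2 ratios were -0.22, -0.76 and -0.45 at 0 h, 0.23, 0.27 and 0.24 at 24 h, and 0.70, 0.52 and 0.42 at 48 h. In susceptible leaves they were -0.68, -0.56 and -0.42 at 0 h, 0.91, 0.56 and 1.26 at 24 h, and 1.29, 1.26 and 1.39 at 48 h. Every infested array was above every 0 h array, and at each time after infestation every susceptible array was above every resistant one.

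Group means of the log2 ratio were -0.48 ± 0.27, 0.25 ± 0.021 and 0.55 ± 0.14 in resistant leaves and -0.55 ± 0.13, 0.91 ± 0.35 and 1.31 ± 0.068 in susceptible leaves (0 h, 24 h and 48 h, SD, n = 3). The ratio was formed because 1-FEH had been seen to rise and AGP-S to fall, so it is given as a description, with no test.

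**Figure D2:**
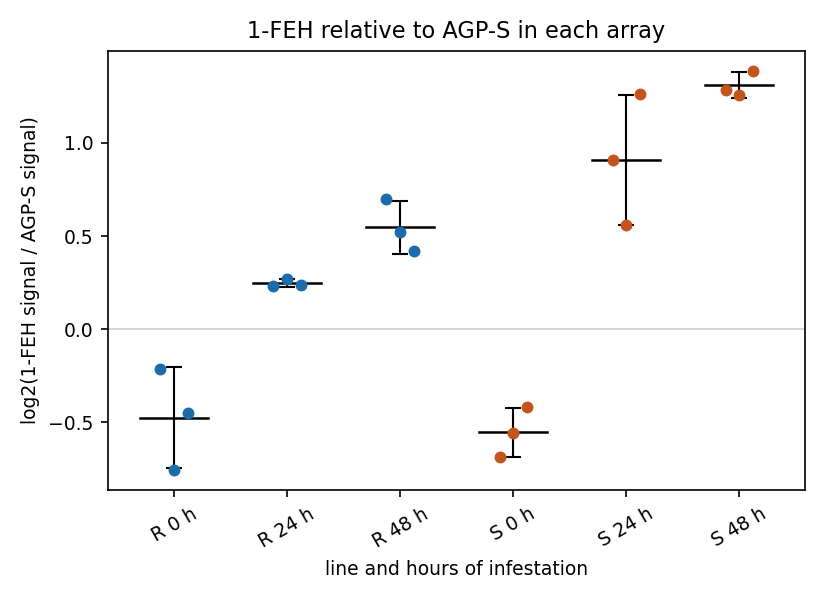
Log2 ratio of the 1-FEH to the AGP-S signal on each array, by line and time after infestation (h), with group means and SD (n = 3). The ratio lies between -0.76 and -0.22 at 0 h, between 0.23 and 0.70 in the infested resistant line and between 0.56 and 1.39 in the infested susceptible line.

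The 6-FEH probe sets were dim. Their signals ran from 2.33 to 224.8, while the 40th percentile of the arrays, the level used to filter low values, lay between 50.8 and 70.1. That level was 60.96 to 70.1 on the 0 h arrays and 50.8 to 58.98 on the infested arrays. The part of this shift in the changes of these dim probe sets was not tested. All 3 passed the filter, which asks for at least 3 arrays above the 40th percentile. The _a_at probe set passed on 3 of its 6 arrays of 0 h and 1 of its 12 infested arrays. For such a probe set a fall after 0 h was close to being a condition of entry, and the number of 6-FEH probe sets that fell supports nothing by itself. Per the maker's naming, the suffix _x_at marks a probe set whose probes may also match other transcripts, and _a_at one that reads several transcripts of a gene.

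The 6-FEH _x_at probe set had the highest mean signal at 0 h of the 6-FEH probe sets, with all its 0 h arrays above the filter level. Its signals in resistant leaves were 148.7, 192.7 and 201.2 at 0 h, 72.1, 64.7 and 44.0 at 24 h, and 49.9, 57.5 and 52.2 at 48 h. In susceptible leaves they were 169.8, 112.6 and 189.8 at 0 h, 33.1, 57.5 and 49.7 at 24 h, and 35.5, 60.7 and 33.0 at 48 h. All 0 h arrays were above all infested arrays, and the lines overlapped at each time.

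The mean signal of the 6-FEH _x_at probe set in resistant leaves was 180.9 ± 28.2 before infestation, 60.3 ± 14.6 at 24 h and 53.2 ± 3.88 at 48 h (SD, n = 3). In susceptible leaves it was 157.4 ± 40.1, 46.8 ± 12.5 and 43.0 ± 15.3. Its log2 change was -1.38 (SE 0.32, adjusted p = 0.00205) and -1.50 (adjusted p = 0.000887) in resistant leaves and -1.46 (adjusted p = 0.00114) and -1.56 (adjusted p = 0.000531) in susceptible leaves. Because 16 was added to the signals, these values understate the change of a dim probe set. The lines did not differ in these changes by the test, with a difference of 0.08 at 24 h (95% interval -0.86 to 1.03) and 0.06 at 48 h (interval -0.89 to 1.003), intervals that leave room for a difference of up to about 1 on the log2 scale either way. Minus the median of all probe sets, the changes were -1.36, -1.44, -1.39 and -1.48, which is the same on either scale. On the scale of the hybridisation controls the changes were -0.68, -0.97, -1.0 and -0.81. There the changes of the resistant line at 24 h and the susceptible line at 48 h no longer passed (adjusted p = 0.136 and 0.0714).

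The 6-FEH _a_at probe set read 103.2, 93.2 and 49.8 in resistant leaves at 0 h, 44.8, 27.7 and 2.33 at 24 h and 34.7, 62.9 and 24.7 at 48 h. The susceptible line read 58.8, 65.4 and 101.1 at 0 h, 12.4, 29.9 and 23.7 at 24 h and 2.39, 19.1 and 22.5 at 48 h. Only the resistant groups of 0 h and 48 h overlapped among the comparisons with 0 h. The log2 change passed the test in resistant leaves at 24 h (-1.38, SE 0.494, adjusted p = 0.0383) and in susceptible leaves at 48 h (-1.61, adjusted p = 0.0134). It was -0.80 in resistant leaves at 48 h (adjusted p = 0.24) and -1.26 in susceptible leaves at 24 h (adjusted p = 0.0561). Because this probe set passed the filter mainly through its 0 h arrays, its calls are no support for a fall by themselves. The 24 h call in resistant leaves was lost when any of 4 single arrays was left out, replicates 1 and 2 of 0 h (-1.21 and -1.28) and replicates 2 and 3 of 24 h (-1.51 and -0.88). The 48 h call in susceptible leaves was lost without replicate 3 of 0 h (-1.42) and without replicate 1 of 48 h (-1.28).

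The 6-FEH TaAffx probe set had the largest standard error of the 3 in the fit. The resistant line gave 41.1, 82.5 and 224.8 at 0 h, 93.5, 29.7 and 33.8 at 24 h and 66.9, 27.4 and 63.2 at 48 h. The susceptible line gave 57.6, 169.7 and 135.1 at 0 h, 35.4, 65.6 and 23.8 at 24 h and 21.1, 21.3 and 25.6 at 48 h. Only the last of these groups was below its 0 h arrays without overlap, and only it passed the test (log2 change -1.72, SE 0.521, adjusted p = 0.0125). Without replicate 2 of the susceptible 0 h group the change was -1.45 and the call was lost. In the other 3 comparisons with 0 h the change was -0.81, -0.75 and -1.21 (adjusted p = 0.263, 0.301 and 0.0834), and the values of resistant leaves became -0.25 and -0.19 without replicate 3 of the resistant 0 h group. The change in susceptible leaves at 24 h ran from -1.61 to -0.94 when single arrays were left out, and passed in 1 of 6 such fits, the one without replicate 1 of 0 h (adjusted p = 0.0358).

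**Figure D3:**
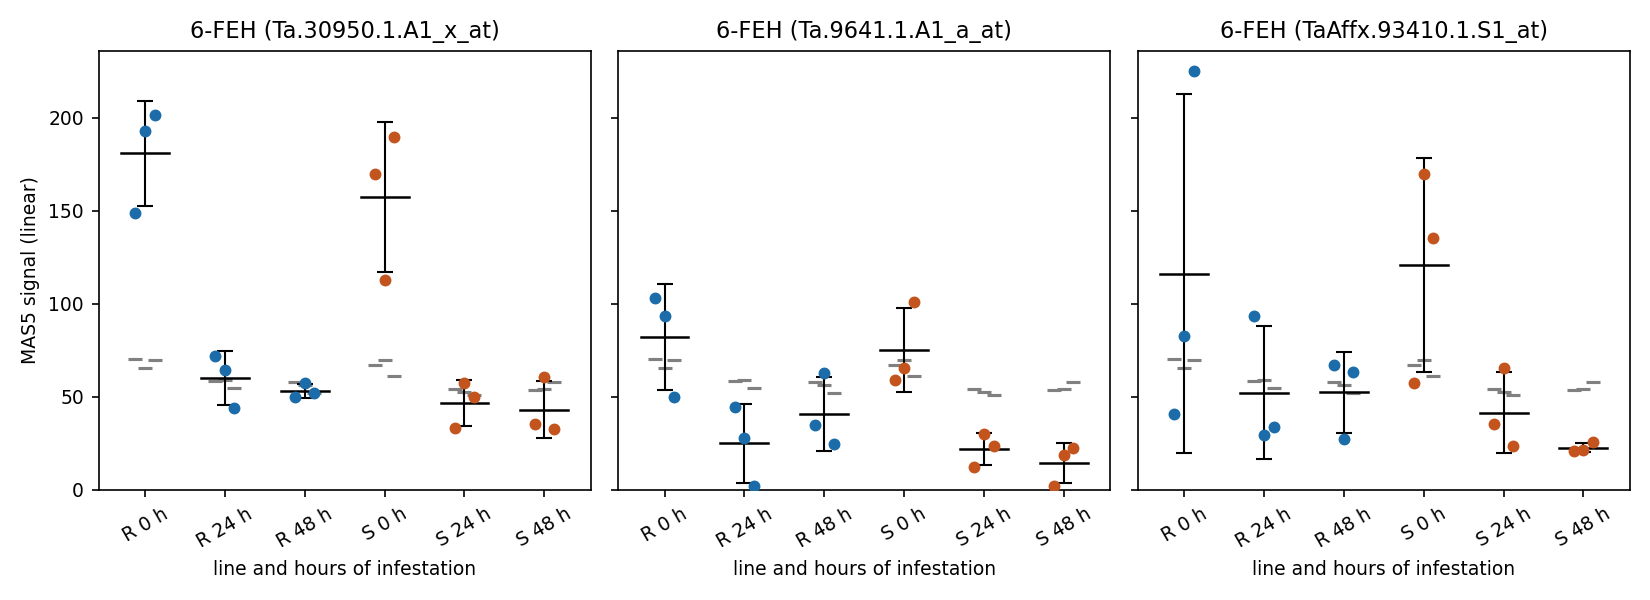
Signals of the 3 probe sets annotated to 6-FEH on each of the 18 arrays, by line and time after infestation (h), on a linear axis, with means and SD (n = 3). Grey dashes mark the 40th percentile of each array. The 0 h signals of the 6-FEH _x_at probe set, 112.6 to 201.2, lie above its infested signals of 33.0 to 72.1, while for the 6-FEH TaAffx probe set 0 h and infested arrays overlap.

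At 48 h the signals of the 6-FEH _a_at probe set and the 6-FEH TaAffx probe set in resistant leaves were above those of the susceptible line on every array. The differences, 0.90 and 0.77 on the log2 scale, did not pass the test (adjusted p = 0.299 and 0.434). Across the 18 arrays the log2 signals of the 6-FEH probe sets correlated with r = 0.82 (the 6-FEH _x_at probe set and the 6-FEH _a_at probe set), 0.69 (the 6-FEH _x_at probe set and the 6-FEH TaAffx probe set) and 0.57 (the other pair), where the shared step from 0 h to infestation enters each value.

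**Figure D4:**
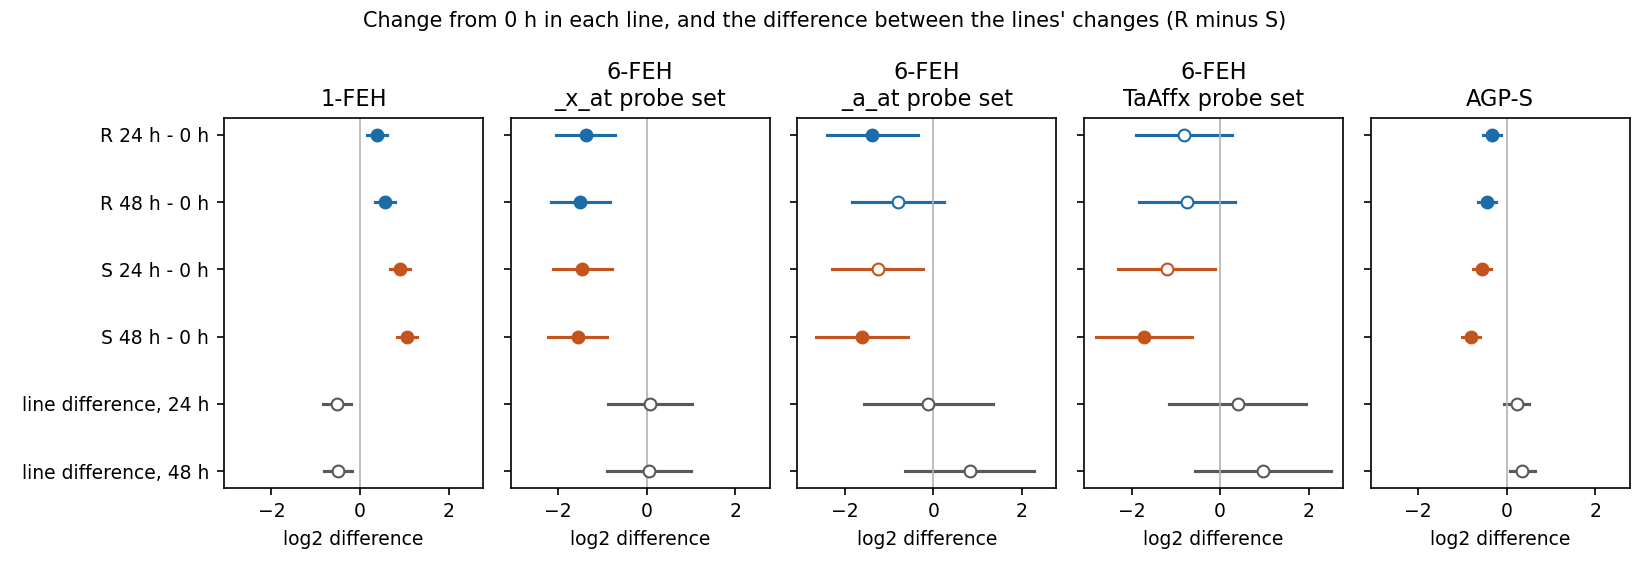
Log2 changes from 0 h for the 5 probe sets in each line at 24 h and 48 h, and the difference between the lines' changes (resistant minus susceptible), with 95% intervals from limma. Filled points passed the threshold. The intervals of 1-FEH lie above 0 and those of AGP-S and the 6-FEH _x_at probe set below 0 in all 4 comparisons with 0 h on the deposited scale, where AGP-S turns sign in resistant leaves on the control scale. Of the differences between lines, the intervals of 1-FEH lie below 0 before adjustment, from -0.83 to -0.20 at 24 h.

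The gene table lists 4 fructan exohydrolase genes of wheat, 3 of them 1-FEH genes, and 2 of these had no annotated probe set. Wheat carries near-identical copies of most genes on its 3 sub-genomes, and a probe set may read several of them together. Of the other genes of fructan, sucrose and starch metabolism sought by name, only 3 were annotated, with 1 probe set each. IVR1 is the name used here for 1 of these probe sets. It was taken by that name as an invertase, and this reading was not checked. IVR1 and GBSS (granule-bound starch synthase, which makes amylose) did not pass the filter on low values. BMY1 is the name used here for a probe set that the annotation first names amy1. It was taken as a beta-amylase, an enzyme that breaks starch down to maltose, and that reading was not checked. BMY1 was tested and was called in none of the 11 comparisons. Its log2 change in limma's fit was 0.63 and 1.48 in resistant leaves (adjusted p = 0.463 and 0.0568) and -1.26 and 0.49 in susceptible leaves (adjusted p = 0.108 and 0.562).

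The symbol AGA.1, which in older wheat work names a leaf cDNA of ADP-glucose pyrophosphorylase, was looked up after values had been seen. The annotation gives that name without a function. Its brighter probe set read 3768, 4997 and 4559 in resistant leaves at 0 h, 1400, 1671 and 1656 at 24 h and 766.1, 1114 and 1092 at 48 h. The susceptible line read 4733, 4669 and 3991, then 1314, 2260 and 1253, and then 725.7, 823 and 714.3. All infested arrays were below all 0 h arrays, and in both lines the 48 h arrays were below those of 24 h. Within a line, 20.9% to 25.9% of all probe sets tested lay below 0 h without overlap, depending on the comparison. For 48 h below 24 h the share was 12.7% (resistant) and 16.4% (susceptible).

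AGA.1 fell in both lines at both times. Of all probe sets tested, 14.5% to 19.1% were called lower in the comparisons with 0 h. From 24 h to 48 h, 2.6% (resistant) and 5.32% (susceptible) were called lower. The log2 changes of its brighter probe set were -1.48 and -2.16 in resistant leaves (adjusted p = 2.31e-06 and 1.31e-08) and -1.51 and -2.54 in susceptible leaves (adjusted p = 1.48e-06 and 7.37e-10). The further fall from 24 h to 48 h was -0.68 in resistant leaves (adjusted p = 0.0376) and -1.03 in susceptible leaves (adjusted p = 0.00101), and the first of these calls was lost without the variance trend and in 5 of the 6 fits that left out 1 of its arrays. A dimmer probe set of the gene changed by -1.31 and -1.68 (adjusted p = 0.0781 and 0.0227) and by -1.82 and -1.86 (adjusted p = 0.0141 and 0.0109). Leaving out single arrays ended the first of its 3 calls in 3 of 6 fits (-2.06 to -1.01), the next in 3 of 6 (-2.27 to -1.50) and the last in 2 of 6 (-2.25 to -1.29). On the scale of the hybridisation controls the brighter probe set changed by -0.79, -1.63, -1.06 and -1.80 in the comparisons with 0 h and kept its calls, and the dimmer one was called in none of them. The changes of AGP-S and AGA.1 were not tested against each other.

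**Figure D5:**
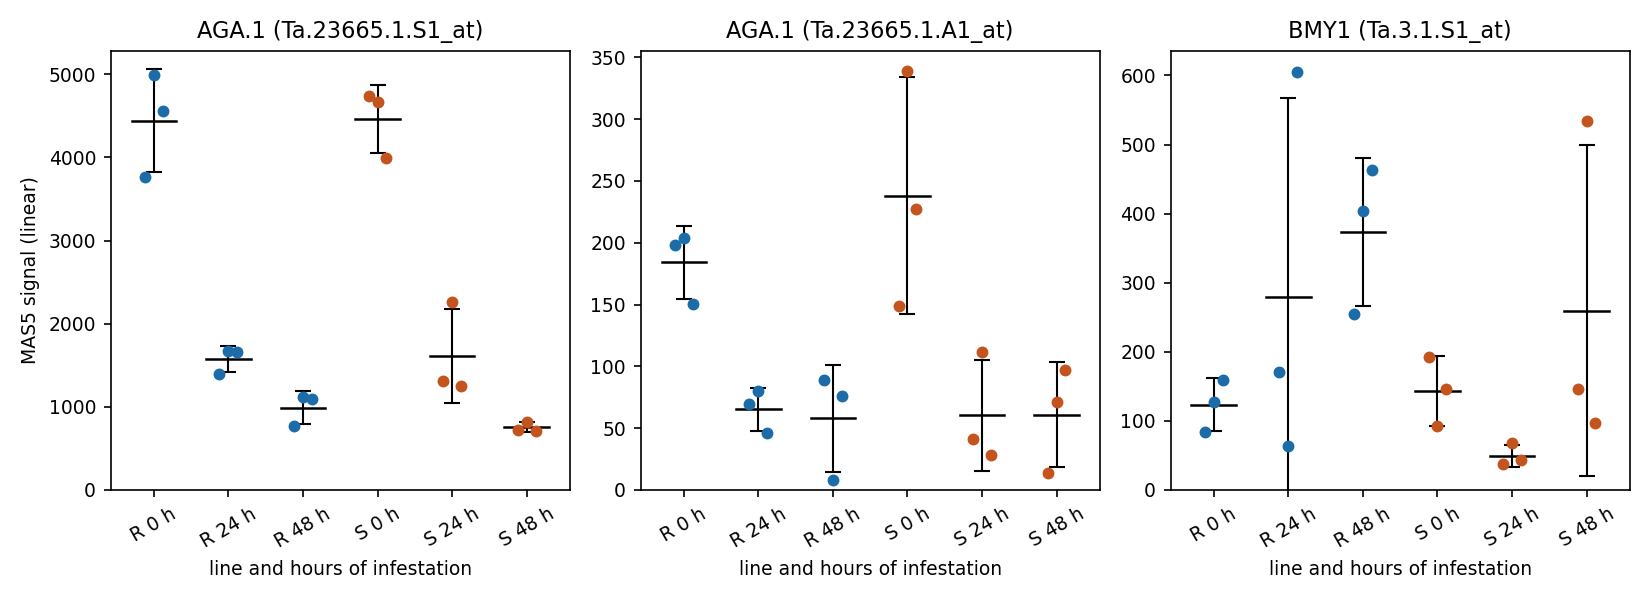
Signals of both AGA.1 probe sets and of the BMY1 probe set on each of the 18 arrays, by line and time after infestation (h). Signals of the brighter AGA.1 probe set lie at 3768 to 4997 at 0 h and at 714.3 to 1114 at 48 h, and BMY1 signals, from 37.3 to 605.2, overlap between 0 h and the infested groups in part. The lower SD bar of BMY1 at 24 h in resistant leaves would pass below 0 and ends there.

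The probe sets whose log2 signals ran most like those of the members were listed from the 18 arrays, with no test, because the step from 0 h to infestation is shared by a large part of the array. For 1-FEH the nearest named genes were xip (r = 0.88 and 0.87, 2 probe sets), a xylanase inhibitor, and Glc1 (r = 0.86). The mean signal of the first xip probe set was 5975 at 0 h and 22470 after infestation. For AGP-S they were OEE2 (r = 0.96 for each of 2 probe sets), an oxygen-evolving subunit of photosystem II, and petC (r = 0.95), the Rieske protein of photosynthetic electron transport. The brighter OEE2 probe set went from a mean of 68780 at 0 h to 32200 after infestation, and petC from 59950 to 30270.

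Among the 6-FEH probe sets, the 6-FEH _x_at probe set ran closest to Trx-M, a chloroplast thioredoxin, CAT1, a catalase, and TSA, with r = 0.95 for each. Other probe sets of the same gene were left out of these rankings of named genes. The 6-FEH _a_at probe set ran closest to H+-ATPase (r = 0.84), CAT1 (r = 0.81) and cys1 (r = 0.79), next to r = 0.82 with the 6-FEH _x_at probe set. For the 6-FEH TaAffx probe set the nearest named genes were AGP-S (r = 0.79), TUB (r = 0.75), a tubulin, and OEE2 (r = 0.73). Over all probe sets tested, the highest r was 0.98 for 1-FEH, 0.97 for AGP-S and 0.97, 0.91 and 0.89 for the _x_at, _a_at and TaAffx probe sets of 6-FEH, each time with a probe set that has no gene name here.

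The summed signal of photosynthesis probe sets moved with the members that fell. On the deposited scale, the sum over 34 probe sets of leaf marker genes was 401300 to 546000 at 0 h and 180500 to 289200 after infestation. Of the 34, 9 were above the 90th percentile on all arrays at 0 h, and 14 to 20 were above the 40th percentile on all arrays of a group. Bright probe sets thus carry the sum. The median signal of the 34 was 104.3, 90.09 and 65.74 in resistant leaves and 146.4, 68.65 and 69.77 in susceptible leaves (0 h, 24 h and 48 h). Of 17 probe sets of grain storage proteins, which should be near background in a leaf, 1 was above the 90th percentile on all arrays, and their summed signal was 6388 to 7233 at 0 h and 7629 to 11700 after infestation. The ratio of 3′ to 5′ signal of the GAPDH control, a sign of RNA quality, was 0.234 to 0.577 at 0 h (median 0.484) and 0.136 to 0.871 after infestation (median 0.30). The same ratio of the actin control was 0.702 to 7.67 at 0 h (median 2.3) and 0.273 to 4.86 after infestation (median 0.60), so that both medians were lower after infestation and both ranges overlapped. The part of these differences in the results was not tested. The same ratio of the wheat control for sucrose synthase was far higher, at 12.2 to 22 at 0 h and 12.3 to 23.4 after infestation. Replicate arrays correlated with r = 0.936 to 0.963.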

How the data were processed

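RNA of 18 leaf samples was hybridised as biotin-labelled cRNA to 1-colour Affymetrix wheat arrays, per the labels. The deposited values are probe-set intensities on a linear scale, made by the authors with MAS5 per the submitters' processing notes (version not given in the sources used here). In the deposited table the mean of every array, after trimming 2% at each end, was 500.1. Detection calls were not used here. The number of arrays limits the precision.

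Signals were analysed as log2(signal + 16), with 111 control probe sets left out. The filter on low values kept a probe set that exceeded the 40th percentile of its array 3 times or more: 46251 passed and 14928 did not. One limma 3.58.1 model (R 4.3.3) held the 6 groups, with variance following the mean, and gave 11 comparisons. It was tested on simulated data. Probe sets were named from the platform annotation and its gene-table synonyms. Named were all members and, called or not, the annotated genes of a fixed list for fructan, sucrose and starch metabolism. Also given were the 3 named genes most correlated with each member, among 163 candidate probe sets. AGA.1 was outside the fixed list and was added after values had been seen. The members and lists were chosen with earlier results of these data known. Probe-set sequences and coordinates were not used here.

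Alternatives were quantile normalization, scaling to hybridisation controls, offsets of 1 and 64, no filter and a stricter filter (60th percentile), no variance trend, only the arrays compared, a block for the replicate number, and leaving out single arrays. Keeping the wheat control probe sets and the ratio of 1-FEH to AGP-S (described, not tested) were added after the data were seen.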

Additional observations from a re-analysis of the deposited data

Results flagged for a closer look

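The array carries 3 wheat control probe sets for sucrose synthase, an enzyme that splits sucrose, and these lie outside the main fit. They were tested by limma with 24 wheat control probe sets added (46275 tested), a step chosen after the values were seen. Of their 12 changes from 0 h in the 2 lines, 9 are taken up here. These were chosen because every infested array was above every 0 h array. The same held for 21% to 22.4% of all probe sets of the main fit, depending on the comparison. The main fit called 17.1% to 17.8% of all probe sets higher in the comparisons with 0 h. The 3 probe sets are the 3′, middle and 5′ parts of the same control, so the 9 changes are not independent of each other. For the 3′ probe set (AFFX-Ta_Sucsyn_3_at) the log2 change was 0.363 at 24 h and 0.248 at 48 h in resistant leaves, and 0.651 and 0.655 in susceptible leaves (adjusted p = 0.00146, 0.0226, 2.03e-06 and 1.36e-06). The middle probe set changed by 0.679 and 0.354 in resistant leaves and by 0.991 and 1.028 in susceptible leaves (adjusted p = 0.000368, 0.0434, 4.3e-06 and 1.98e-06), and its resistant 48 h arrays overlapped those of 0 h. The 5′ probe set changed by 0.583 and 0.714 in susceptible leaves (adjusted p = 0.0529 and 0.0163), so that the first of these did not pass, and by 0.019 and -0.132 in resistant leaves (adjusted p = 0.964 and 0.707), with overlap. When single arrays were left out, the resistant 48 h call was lost in 2 of 6 fits for the 3′ probe set and in 5 of 6 for the middle one, and the susceptible 48 h call of the 5′ probe set in 3 of 6. Without the variance trend both resistant 48 h calls were lost, and that of the middle probe set with quantile normalization too.

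For 2 of these probe sets the change at 48 h differed between the lines in limma's test of the difference itself, with less of a rise in resistant leaves: -0.407 for the 3′ probe set (adjusted p = 0.0447) and -0.675 for the middle one (adjusted p = 0.0392). The 5′ probe set gave -0.846 (adjusted p = 0.15). The main fit called 5.05% of all probe sets in that comparison. Both calls were lost on the scale of the hybridisation controls (adjusted p = 0.189 and 0.0859), without the variance trend, and in 9 and 8 of the 12 fits that left out 1 array. At 24 h the differences were -0.287 (3′), -0.312 (middle) and -0.563 (5′). None of these passed (adjusted p = 0.298, 0.555 and 0.522). At 0 h the 3′ probe set was already lower on every resistant array than on every susceptible array (-0.229, adjusted p = 0.589). Groups did not overlap at 0 h for 10.5% of all probe sets of the main fit.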

How the results depend on the processing

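Scaling to the hybridisation controls turned the sign of AGP-S in resistant leaves (0.35 at 24 h, 0.08 at 48 h) and took its changes in susceptible leaves below the threshold (-0.11 and -0.06). It also took below the threshold the changes of the 6-FEH _x_at probe set (-0.68, resistant 24 h, and -0.81, susceptible 48 h), the 6-FEH _a_at probe set (-0.68 and -0.87, the same comparisons), the 6-FEH TaAffx probe set (-0.98, susceptible 48 h) and the 1-FEH difference between lines at 24 h (-0.37, adjusted p = 0.307 in limma). The 6-FEH _a_at probe set in resistant leaves at 24 h was also lost with quantile normalization (-1.22), an offset of 1 (-2.28) and only the arrays compared (-1.38). In susceptible leaves at 24 h it passed with an offset of 64 (-0.69) and without the variance trend (-1.26). The difference in the change of 1-FEH at 48 h passed under the stricter filter (-0.49, adjusted p = 0.0484 in limma), which tested fewer probe sets and removed the 6-FEH _a_at probe set and the 6-FEH TaAffx probe set. The cause of a changed call was not tested for any of these settings.

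Leaving out single arrays gave these ranges where a call of one of the 5 members changed. In resistant leaves at 24 h: 1-FEH 0.31 to 0.44 (lost without replicate 2 of 0 h), AGP-S -0.41 to -0.27 (lost without replicate 2 of 0 h or of 24 h) and the 6-FEH _a_at probe set -1.75 to -0.88. In susceptible leaves: the 6-FEH TaAffx probe set -1.61 to -0.94 at 24 h and -2.12 to -1.45 at 48 h, and the 6-FEH _a_at probe set -1.82 to -1.28 at 48 h. The difference in the change of 1-FEH ranged from -0.59 to -0.40 at 24 h and from -0.56 to -0.42 at 48 h.

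Counts of probe sets called moved by over 1.5 times in 7 comparisons. For 48 h minus 24 h, 2390 in resistant leaves became 1152 on the control scale, 1009 without the trend and 1265 to 1667 without single arrays, and 4687 in susceptible leaves became 2904 to 4464. Between lines, 10 at 0 h became 4 on the control scale, 3 with only the arrays compared and 6 to 18 without single arrays. At 24 h 2382 became 1544 without the trend, 1519 with only the arrays compared and 1431 to 3231, and at 48 h 5586 became 3370 to 5764. For the difference between changes, 738 at 24 h became 390 without the trend and 476 to 1304, and 2337 at 48 h became 1384 on the control scale, 1238 without the trend and 1266 to 2892.

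Same-numbered samples did not deviate together (correlations -0.034 to 0.062 over 27 pairs, 0 of them over 0.1), so they share only a number. With the replicate number as a block no call of the 5 members changed (1-FEH in resistant leaves at 24 h: 0.38, adjusted p = 0.00801 in limma). The dim 6-FEH probe sets are limited by signal near the background of the array.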
